A study of Homo sapiens with 6 samples.

Results

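The large ribosomal subunit, called 60S, is built from ribosomal RNA and a fixed set of proteins, and the genes of those proteins are described here. Rows of the deposited count table were taken as large-subunit ribosomal protein genes when their symbol was RPL followed by a number, with or without a closing A, or was RPLP0, RPLP1 or RPLP2. This gave 44 of 35106 rows. RPL6 and RPL7A were not analysed here. Transcripts were measured by RNA sequencing in HCT116 cells, a human colon carcinoma line labelled as WT in genotype in both groups. One group received 30 µM curcumin, the yellow polyphenol of turmeric, for 24 h, and the other carried no treatment, with 3 libraries in each. Whether the untreated cells received the solvent is not stated in those labels, which write the dose unit in a form that reads as micrometres. It is not stated whether replicates are separate cultures, so p-values reflect how these libraries varied among themselves, which may be technical.

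Each cell needs the proteins of both ribosomal subunits in nearly equal numbers, and their mRNAs are among the most abundant in growing cells. In mammals most of them are 5′TOP mRNAs, which begin with a cytosine followed by a run of pyrimidines. This start lets their translation be switched as a group downstream of the kinase mTORC1, through the binding protein LARP1. Ribosomal protein genes also have many processed pseudogenes, and some hold small nucleolar RNA genes in their introns. Of the 44 members, 18 held 36 such RNA genes, and the members lay on 18 chromosomes, with 3 on X.

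The start of the transcript carries the feature that defines 5′TOP mRNAs, and it is shown for 8 members. These are the 4 genes with the largest fold change, the most abundant P stalk gene, the 5S-binding RPL11, and the pair with the smallest fold change. Each line holds 15 bases before the RefSeq start site and 15 bases from it (RefSeq promoter table, GRCh38.p14). Capitals mark a cytosine at the start site and the unbroken run of pyrimidines that follows it, where that run holds at least 5 bases within the window.
RPL39: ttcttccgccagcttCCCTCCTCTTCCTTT
RPL36A: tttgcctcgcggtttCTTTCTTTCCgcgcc
RPL34: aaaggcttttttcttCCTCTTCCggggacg
RPL31: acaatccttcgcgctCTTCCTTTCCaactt
RPLP0: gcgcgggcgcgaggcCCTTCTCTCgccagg
RPL11: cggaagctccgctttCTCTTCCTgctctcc
RPL17: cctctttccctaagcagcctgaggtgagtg
RPL15: ggcgctggggcctgctggaggagcttcacg
The windows lie at chrX:119791616-119791645 on the minus strand for RPL39, chrX:101390996-101391025 on the plus strand for RPL36A, chr4:108620561-108620590 on the plus strand for RPL34 and chr2:101002274-101002303 on the plus strand for RPL31. RPLP0 is shown at chr12:120201097-120201126 on the minus strand and RPL11 at chr1:23691791-23691820 on the plus strand. RPL17 is shown at chr18:49492451-49492480 on the minus strand and RPL15 at chr3:23916530-23916559 on the plus strand. A pyrimidine tract of this kind stood at the listed start of 27 of the 36 members with an entry, against 5.14% of all 27305 genes in the table. The tracts ran from 5 to 19 bases, with a median of 8, and the longest, that of RPL39, extends past its window. RPL17 and RPL15 had none at these starts, which says only that the letters are not at the listed position.

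All 44 genes rose after curcumin. Each had passed the filter on low counts, each had an adjusted p under 0.05 (edgeR's quasi-likelihood test with Benjamini-Hochberg adjustment over 13718 genes), and 0 fell. In the same test 27.2% of all genes were higher after curcumin and 28.9% were lower. The median log2 fold change of the 44 genes was 2.36, with a range from 1.78 for RPL15 to 3.13 for RPL39, while the median over all tested genes was -0.04. The 3 curcumin libraries lay above the 3 untreated libraries in all 44 genes, a separation that 30.9% of all tested genes showed. For 42 members the fold change was at least 4, against 4.92% of tested genes called higher by that much. A count is relative to all else sequenced in its library, and in bulk RNA more cells with a transcript and more transcript per cell cannot be told apart.

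**Figure D1:**
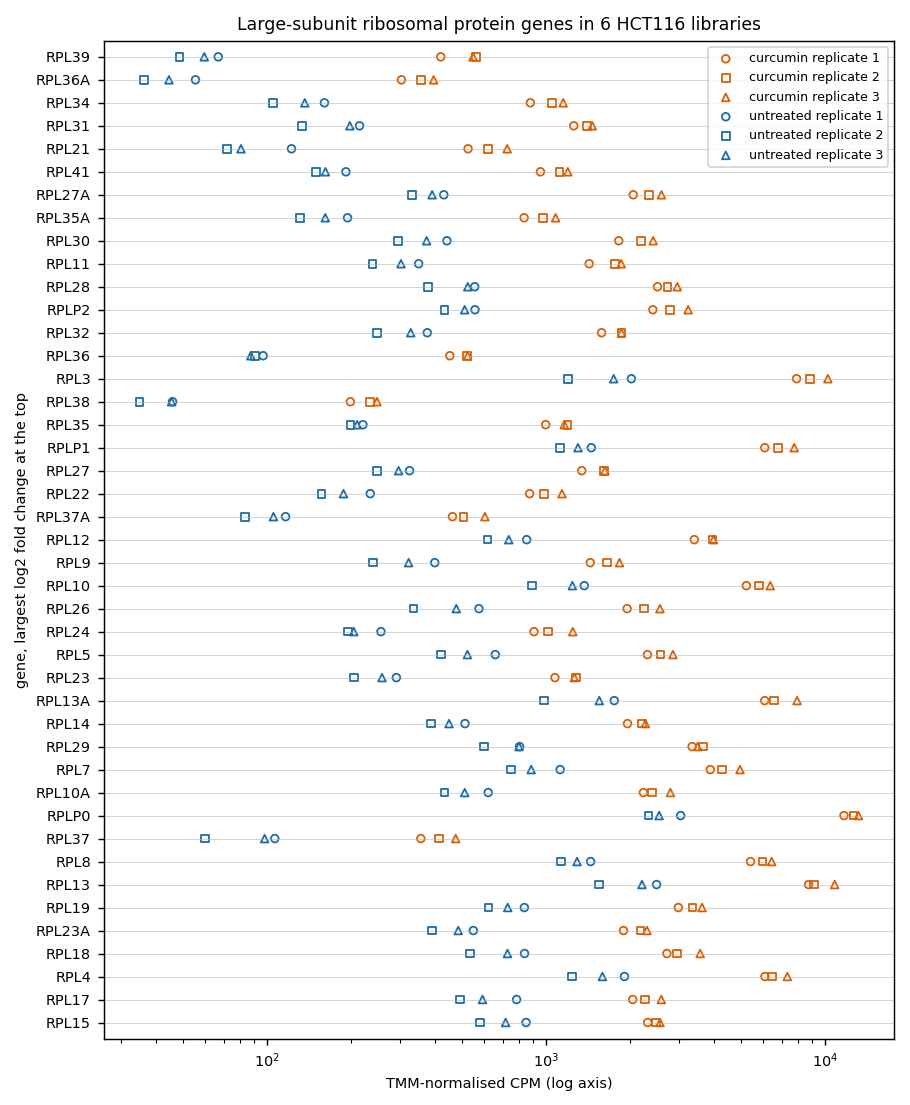
TMM-normalised CPM (counts scaled to the effective library size, log axis) of 43 large-subunit ribosomal protein genes in the 3 curcumin and 3 untreated libraries, one gene per line, with the largest fold change at the top. Orange curcumin points lie right of all blue untreated points on every line, and untreated replicate 2 is the leftmost point on nearly every line.

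The same rise is seen in the share of all counts. Large-subunit genes took 9.56%, 9.92% and 10.4% of counts in the curcumin libraries, against 4.12%, 2.91% and 3.66% in the untreated libraries. The small-subunit genes, RPS genes of the same ribosome, took 6.14%, 6.43% and 6.79% in curcumin libraries, against 2.56%, 1.94% and 2.21% in untreated libraries. Large-subunit counts were 1.557, 1.544 and 1.537 times the small-subunit counts after curcumin, against 1.607, 1.497 and 1.651 times in untreated cells, so the ratio of the subunits overlapped between the groups. The 5 most abundant members of each library held 33.3% to 34.3% of the family's counts in curcumin libraries, against 34.4% to 35.4% in untreated libraries.

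**Figure D2:**
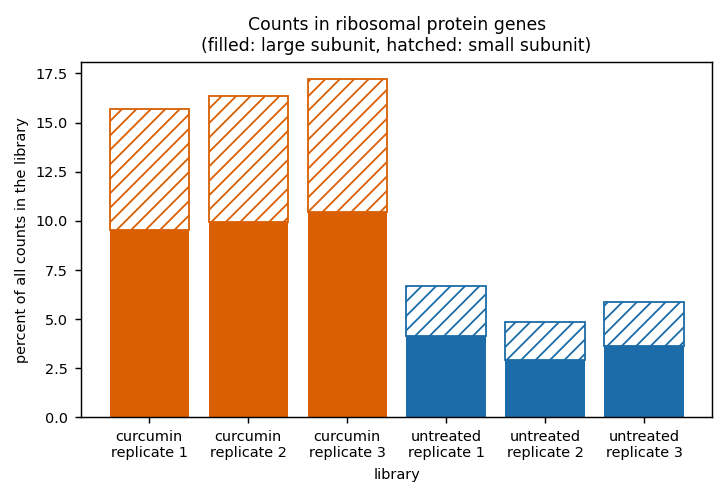
Percent of all counts in a library that fell in large-subunit genes (filled) and small-subunit genes (hatched), by library. The large-subunit share is 9.56% to 10.4% in the 3 curcumin libraries and 2.91% to 4.12% in the 3 untreated libraries.

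The P stalk and the GTPase centre recruit and activate translation factors, and their 5 genes rose by 2.25 to 2.49 on the log2 scale. RPLP0, which anchors the stalk, had 11720, 12690 and 13210 CPM in curcumin libraries, against 3042, 2330 and 2547 CPM in untreated libraries, a log2 fold change of 2.25 ± 0.17 (SE; adjusted p = 1.36e-05, edgeR). RPLP1, one of the acidic proteins that form its tip, had 6093, 6793 and 7773 CPM after curcumin, against 1454, 1124 and 1303 CPM in untreated cells (log2 fold change 2.41 ± 0.18). Its partner RPLP2 had 2417, 2782 and 3236 CPM after curcumin, against 556.5, 432.7 and 511.0 CPM in untreated cells (2.49 ± 0.18). In all 3 genes the lowest curcumin library lay well above the highest untreated one. Scaled to transcript length, RPLP1 was the most abundant member, with 15470 CPM per kilobase after curcumin and 2907 CPM per kilobase in untreated cells, and RPLP0 came next, with 11350 and 2388 CPM per kilobase.

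RPL5 and RPL11 bind the 5S ribosomal RNA, and outside the ribosome this complex is known to inhibit MDM2, the ligase of p53. RPL11 had 1429, 1768 and 1862 CPM in curcumin libraries, against 349.4, 238.5 and 302.0 CPM in untreated libraries, a log2 fold change of 2.51 ± 0.19 (adjusted p = 1.35e-05, edgeR). RPL5 had 2312, 2575 and 2854 CPM after curcumin, against 658.0, 421.0 and 522.8 CPM in untreated cells (2.27 ± 0.19, adjusted p = 1.70e-05, edgeR). Both sets of libraries were separate in each gene.

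Proteins that reach the peptidyl transferase centre or the tRNA sites were represented by RPL3, RPL8, RPL10 and RPL36A, which rose by 2.20 to 2.96 on the log2 scale. RPL3, which shapes the catalytic centre, had 7924, 8842 and 10260 CPM after curcumin, against 2025, 1200 and 1749 CPM in untreated cells (2.44 ± 0.22). RPL10, a late-joining protein needed for the final maturation of the subunit, averaged 5805 ± 573 CPM in curcumin libraries and 1169 ± 251 CPM in untreated libraries (SD, n = 3 each), a log2 fold change of 2.31. RPL8, which lies beside the catalytic centre, averaged 5949 ± 518 CPM after curcumin and 1291 ± 156 CPM in untreated cells, a log2 fold change of 2.20. RPL36A, which touches the tRNA exit site, had 303.0, 356.9 and 395.3 CPM after curcumin, against 55.3, 36.2 and 44.4 CPM in untreated cells (2.96 ± 0.19). It was the least abundant member per kilobase in both groups, and its fold change was among the largest.

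New chains leave the ribosome through the exit tunnel, and the 9 genes of its proteins form the largest role group. On the log2 scale, the 20 members outside the role groups ran from 1.78 to 2.94. The 9 tunnel genes ran from 1.89 to 3.13, the widest range among the role groups. At the upper end, RPL39, a very small protein inside the tunnel, had 419.4, 560.7 and 547.5 CPM in curcumin libraries, against 66.7, 48.4 and 59.5 CPM in untreated libraries (3.13 ± 0.18, adjusted p = 9.59e-06, edgeR). RPL31, at the tunnel's rim, had 1258, 1402 and 1466 CPM after curcumin, against 214.4, 133.5 and 197.9 CPM in untreated cells (2.92 ± 0.20). At the lower end, RPL17 had 2047, 2262 and 2593 CPM after curcumin, against 784.7, 492.4 and 592.0 CPM in untreated cells (1.89 ± 0.20). RPL4, which lines the tunnel with a long loop, averaged 6640 ± 636 CPM after curcumin and 1581 ± 337 CPM in untreated cells (SD, n = 3 each), a log2 fold change of 2.07. RPL22, which is not needed for growth of most mouse tissues but is needed for development of some T cells there, averaged 999 ± 135 CPM after curcumin and 193 ± 39.0 CPM in untreated cells, a log2 fold change of 2.37.

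Proteins that bridge the 2 subunits include RPL41, the smallest protein of the ribosome, with 955.5, 1119 and 1198 CPM after curcumin, against 191.6, 149.3 and 161.8 CPM in untreated cells (2.70 ± 0.16). RPL30 averaged 2149 ± 303 CPM after curcumin and 370 ± 73.1 CPM in untreated cells (2.54), and RPL23 averaged 1207 ± 113 CPM after curcumin and 251 ± 43.2 CPM in untreated cells (2.26, SD and n = 3 throughout). The 4 bridge genes ranged from 2.26 to 2.70 on the log2 scale.

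Of the 20 members outside these groups, all rose, with a median log2 fold change of 2.33. RPL34 had 878.9, 1052 and 1153 CPM in curcumin libraries, against 160.5, 105.1 and 136.4 CPM in untreated libraries (2.94 ± 0.20). RPL13A, which in human monocytes is released from the ribosome after interferon-gamma and silences inflammatory mRNAs, had 6090, 6569 and 7958 CPM after curcumin, against 1758, 986.2 and 1553 CPM in untreated cells (2.26 ± 0.23). RPL15 had 2317, 2479 and 2564 CPM after curcumin, against 848.4, 581.2 and 716.7 CPM in untreated cells (1.78 ± 0.17, adjusted p = 2.93e-05, edgeR). Even this smallest fold change separated all curcumin from all untreated libraries.

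**Figure D3:**
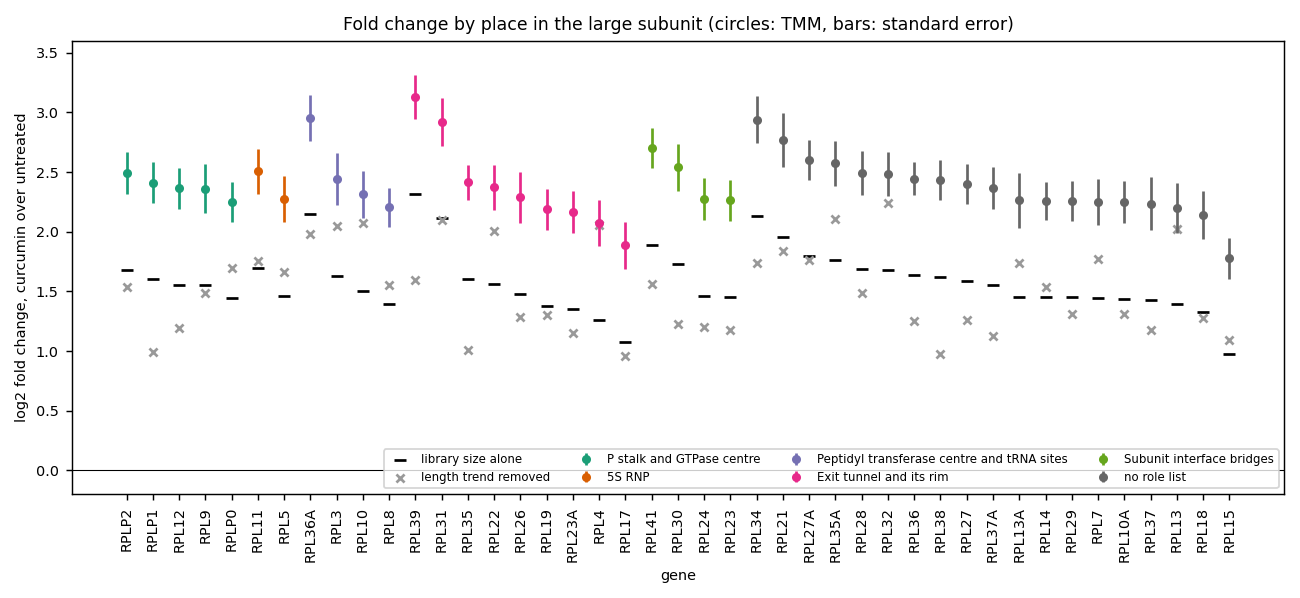
Log2 fold change, curcumin over untreated, of 43 large-subunit genes, coloured by its place in the subunit. Circles with bars are TMM-based values with their standard error, dashes use library size alone and crosses have each library's trend with transcript length removed; every symbol lies above 0, and the circles run from 1.78 to 3.13.

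How far the genes rose depended on scaling. With library size alone, the median of the 44 genes was 1.55 and that of all tested genes was -0.84, all 44 were called higher, and 1320 genes in all were called higher (9.62%) and 7747 lower (56.5%), against 3732 higher and 3964 lower with TMM factors. A change of scaling factor moves all genes by nearly the same amount. The gap between the members and all genes, 2.40 on the log2 scale with either scaling, therefore says nothing about which scaling is right. The members also have short transcripts, with a median length of 725 bases, and short transcripts were higher after curcumin in general. Among 1044 other protein-coding genes of 401 to 999.5 bases, the median log2 fold change was 0.95 and 58.4% were called higher. Over the members' whole length range, 401 to 2316.5 bases, 5727 other protein-coding genes had a median of 0.43 and 41.3% were called higher. With each library's trend with length removed, the median of the members was 1.53, and all 44 were still called higher, as were 25.8% of all genes, with 23.7% lower. All 44 also passed a test against a minimum fold of 2, which 8.0% of all genes passed as higher and 7.64% as lower. The part of transcript length, and of anything in library preparation or RNA quality that acts through it, was not tested beyond these values.

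The order of abundance was similar in both groups, with some shifts: RPL15 ranked 24 of 44 per kilobase after curcumin and 14 in untreated cells, and RPL17 ranked 20 after curcumin and 12 in untreated cells. Across the 44 genes, levels per kilobase after curcumin and in untreated cells had a Pearson r of 0.98 and a Spearman rho of 0.97, a description over genes that share the same 6 libraries. Less abundant members tended to have larger fold changes, with a rho of -0.58 between the log2 fold change and the mean log2 CPM. Transcript length gave a rho of -0.35 and GC content a rho of -0.23. Across all 44 members, curcumin replicate 1 was the lowest curcumin library and untreated replicate 1 the highest untreated library, and untreated replicate 2 was the lowest of all in 43 members. Without untreated replicate 2, the median log2 fold change was 2.21.

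A second fit took the summed counts of the 44 genes as the library size, and so asked which members departed from the common rise. Against that sum, 4 members were higher after curcumin, 2 were lower and 38 were not called at an adjusted p under 0.05. In this fit 1.72% of all tested genes were higher and 90.3% were lower than the family. RPL39 made up 0.384% ± 0.037 of the family's counts after curcumin and 0.216% ± 0.0064 in untreated cells (SD, n = 3 each), a relative log2 fold change of 0.83 ± 0.24 (SE; adjusted p = 0.0028, edgeR). The relative log2 fold change was 0.66 ± 0.24 for RPL36A (adjusted p = 0.014, edgeR), 0.65 ± 0.21 for RPL34 (0.0074) and 0.64 ± 0.20 for RPL31 (0.0063). RPL15 made up 1.86% ± 0.096 of the family's counts after curcumin and 2.65% ± 0.044 in untreated cells, a relative log2 fold change of -0.51 ± 0.17 (adjusted p = 0.0072, edgeR). RPL17 made up 1.74% ± 0.035 after curcumin and 2.30% ± 0.16 in untreated cells, a relative log2 fold change of -0.40 ± 0.17 (adjusted p = 0.033, edgeR). RPLP0, the largest single contributor, made up 9.50% ± 0.41 after curcumin and 9.86% ± 0.78 in untreated cells, and its relative change of -0.05 was not called.

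Several of these departures changed with the treatment of transcript length. With the length trend removed, RPL39 was at 0.13 (adjusted p = 0.61, edgeR), RPL34 at 0.30 (0.18) and RPL15 at -0.33 (0.069), and none of these 3 was called. RPL31 was at 0.69 with that trend removed and stayed called (adjusted p = 0.0047, edgeR). RPL17 was not called with DESeq2, without a low-count filter or with the GC trend removed (adjusted p 0.059 to 0.12), nor without any one of curcumin replicates 1, 2 and 3 or untreated replicate 1. RPL34 and RPL36A were not called without curcumin replicate 2 (adjusted p 0.059 and 0.081), nor RPL36A without untreated replicate 3 (0.069). Removing the trend with the longest transcript put RPL39 at -0.43, RPL15 at 0.20, RPL36A at 0.27 (adjusted p = 0.28, edgeR) and RPL34 at 0.19 (0.39), none of them called. None of the 6 passed a minimum fold of 2.

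**Figure D4:**
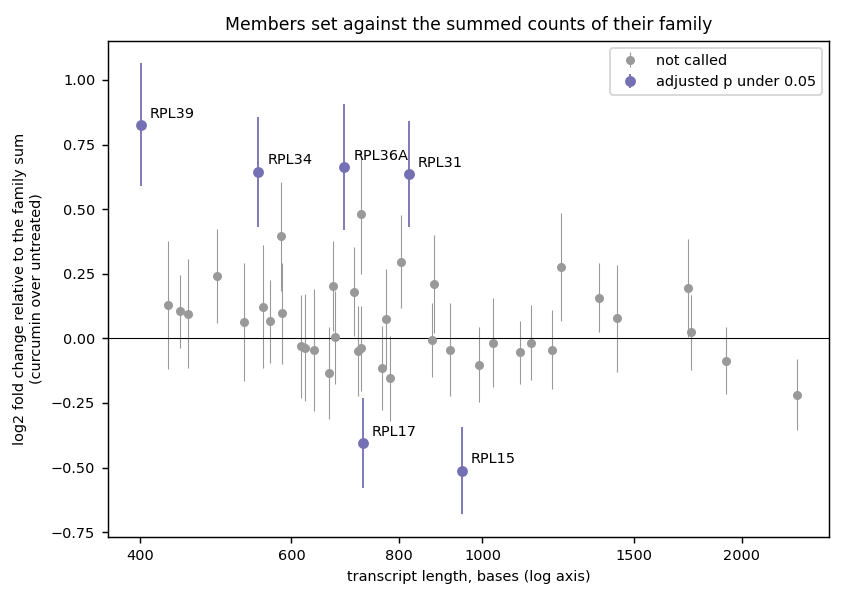
Log2 fold change of each member, curcumin over untreated, when the summed counts of the 44 genes serve as library size, against transcript length in bases (log axis). Bars are standard errors; the 6 named genes passed an adjusted p of 0.05 and range from -0.51 for RPL15 to 0.83 for RPL39.

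Near-identical copies make some values uncertain. The table lists 713 rows for large-subunit pseudogenes, and together they held 1.04% to 1.14% of the combined gene and pseudogene counts in curcumin libraries, against 1.13% to 1.37% in untreated libraries. RPL21 was the exception, chosen after its values were seen: its 66 pseudogene rows held 68.5% of the counts of RPL21 and its copies after curcumin and 76.1% in untreated cells. RPL21 alone had 525.6, 619.4 and 726.1 CPM after curcumin, against 122.2, 71.9 and 80.6 CPM in untreated cells (log2 fold change 2.77). With its copies added, the sum was 1979 ± 299 CPM after curcumin and 384 ± 69.9 CPM in untreated cells, a log2 ratio of 2.37. The readthrough row of RPL17 and C18orf32 held 446, 406 and 535 counts in curcumin libraries, against 160, 178 and 81 in untreated libraries, so reads of RPL17 could also be assigned there.

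Related genes set the rise of the family in context. Of the 31 small-subunit genes, 30 rose, 0 fell and the median was 2.35 on the log2 scale, and RPS27 (2.90) and RPS12 (2.67) had the largest. The one not called, RPS9, had 9.94, 0 and 1.33 CPM after curcumin, against 1.82, 2.67 and 0.75 CPM in untreated cells. It held 150 counts over the curcumin libraries and 132 over the untreated libraries, where RPS27, the next lowest small-subunit gene, held 2617. The direction of RPS9 cannot be read from counts this low, and why they were low was not tested. All 19 other genes with 5′TOP mRNAs, mostly translation factors, rose, with a median of 2.08, among them TPT1 (2.53) and the elongation factor subunit EEF1B2 (2.52).

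Mitochondria have their own ribosome, and of the 48 tested genes of its large subunit, 20 rose (41.7%), 7 fell and 21 were not called, with a median of 0.22, where 27.2% of all tested genes were higher and 28.9% lower. MRPL18 (2.75) and MRPL33 (2.13) rose most, and MRPL14 (-1.39) and MRPL44 (-1.29) fell most. MRPL33 was at 0.75 with the length trend removed. With the trend in longest transcript length removed it was at 0.56 and not called (adjusted p = 0.052, edgeR). MRPL14 and MRPL44 did not pass a minimum fold of 2. These calls used TMM factors and depend on scaling. The comparison with all tested genes was also not matched for transcript length. Among 5727 other protein-coding genes of 401 to 2316.5 bases, 41.3% were called higher, with a median of 0.43. Whether the 41.7% of mitochondrial large-subunit genes exceeds the share at their own lengths was not tested. As a share of all counts, the mitochondrial large-subunit genes did not rise, at 0.176% to 0.217% in curcumin libraries, against 0.195% to 0.268% in untreated libraries. Of 37 factors that assemble or export the 60S subunit, 11 rose (29.7%), 10 fell and 16 were not called, with a median of -0.11, and these shares were close to those of all tested genes. ZNF622, a late cytoplasmic assembly factor, had 124.8, 142.1 and 243.1 CPM after curcumin, against 26.2, 23.3 and 22.2 CPM in untreated cells (2.83 ± 0.25). RRS1, which helps to bring in the 5S complex, had 6.20, 4.52 and 6.65 CPM after curcumin, against 22.5, 34.4 and 22.2 CPM in untreated cells (-2.19 ± 0.25). NOP53 rose by 2.21 and PPAN fell by 1.28 on the log2 scale.

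**Figure D5:**
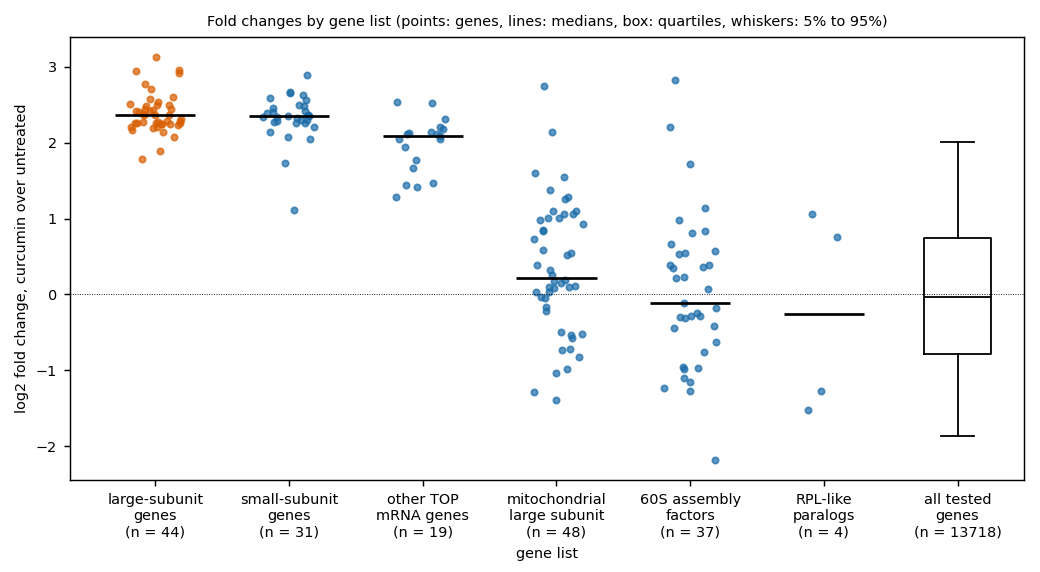
Log2 fold change, curcumin over untreated, of the tested genes in each list, with a line at the median, and a box for all tested genes. The medians are 2.36 for large-subunit, 2.35 for small-subunit and 2.08 for other TOP mRNA genes, and 0.22 for mitochondrial large-subunit genes and -0.11 for 60S assembly factors.

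Paralogs with RPL-like names outside the rule were split. RPL22L1, the close relative of RPL22, had 34.2, 37.9 and 35.3 CPM in curcumin libraries, against 111.9, 103.0 and 93.4 CPM in untreated libraries (-1.52 ± 0.14, adjusted p = 2.59e-05, edgeR), while RPL22 itself rose. RPL7L1 also fell, with 51.4, 56.0 and 85.9 CPM after curcumin, against 152.4, 167.2 and 147.1 CPM in untreated cells (-1.27 ± 0.20). RPL36AL (1.06 ± 0.17) and RPL26L1 (0.76 ± 0.22) were called higher with TMM factors. With library size alone neither was called, at 0.25 for RPL36AL and -0.044 for RPL26L1, nor with the length trend removed, at 0.15 and -0.20. RPL26L1 was also not called without curcumin replicate 2, untreated replicate 1 or untreated replicate 3 (adjusted p 0.065 to 0.083, edgeR). RPL3L was below the filter on low counts, and RPL10L and RPL39L had 0 counts in every library.

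The start-site tract was also common in the other lists that rose. Other TOP mRNA genes were listed for such a start, so their share follows from the choice of list. A tract stood at the listed start of 18 of 24 small-subunit genes with an entry, 12 of 13 other TOP mRNA genes, 3 of 42 mitochondrial large-subunit genes and 3 of 31 assembly factors. Among tested genes outside the ribosomal protein and TOP lists, the 696 with a tract had a median log2 fold change of 0.18 and 37.8% were called higher, while the 9538 without one had a median of -0.10 and 25.2% were called higher. Within the family, the 27 genes with a tract had a median of 2.41 and the 9 without one had a median of 2.25. In the 300 bases from 250 before to 50 after the start, CCGGAAG and AANATGGC were searched on both strands. TATAAA was searched on the strand of the transcript alone. Shares are of genes with a promoter entry, 36 of them members. The letters CCGGAAG occurred in 36.1% of members, against 21.8% of tested genes and 12.2% of all genes. They were more frequent in the lists that did not rise as a whole, at 51.6% of assembly factors and 42.9% of mitochondrial large-subunit genes. AANATGGC occurred in 19.4% of members, against 12.2% of tested genes, 7.97% of all genes and 38.1% of mitochondrial large-subunit genes. TATAAA occurred in 2.78% of members, against 5.22% of tested genes and 8.99% of all genes. A match is a description of letters and not of a bound factor.

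Markers of cell identity moved too. The summed level of 10 colon epithelial markers was 7290 to 8500 CPM in curcumin libraries, against 4200 to 4920 CPM in untreated libraries, with KRT8, KRT18, KRT19 and EPCAM higher, CLDN3, CLDN4 and CDX2 lower, CDH1 not called, and CDX1 and VIL1 below 1 CPM in every library. With TMM factors KRT8 was at 1.26 on the log2 scale, EPCAM at 0.89, KRT18 at 0.68 and KRT19 at 0.60. The median of all tested genes was -0.84 with library size alone, against -0.04 with TMM factors. Rises of this size therefore depend on scaling. The sum of 5 leukocyte markers was 12.4 to 31.2 CPM after curcumin, nearly all from CD14, against 0.411 to 0.607 CPM in untreated cells. LYZ was also called higher, with 1.20, 1.51 and 1.72 CPM after curcumin, against 0.038, 0.21 and 0.24 CPM in untreated cells. CD3E was at 0 in all libraries, and PTPRC was below 1 CPM in each. The sum of 4 endothelial markers was 8.97 to 28.2 CPM after curcumin, mostly from PECAM1, against 1.44 to 2.24 CPM in untreated cells, with CDH5 below 1 CPM. The 5 fibroblast markers summed to 15.5 to 38.7 CPM after curcumin and 25.7 to 30.7 CPM in untreated cells. The part of these shifts in the rise of ribosomal protein transcripts was not tested.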

How the data were processed

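The table the authors deposited holds estimated counts for each gene (expected counts of reads), unscaled between libraries, from 6 RNA libraries made with a SMARTer mRNA-Seq kit, per the labels. The aligner and counter are not given in the sources used. Mouse builds (GRCm38, mm10) appear in the submitters' processing notes, but all 35106 identifiers are human, and 35003 of them, with all 44 members, were matched to GENCODE 29 (GRCh38) for lengths and positions. Transcript length is the median over complete protein-coding transcripts. Use of strand and sharing of reads between copies are not stated. Counts were rounded, moving no value by more than 0.5. Totals were 16663562 to 17893056 in curcumin and 18154380 to 20311769 in untreated libraries, and the chi-square of replicate pairs was 11.1 to 71.2 times its degrees of freedom, so none agreed within sampling noise.

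Genes passed edgeR's filterByExpr (minimum count 10, minimum total 15), were scaled with TMM factors (0.72 to 0.80 in curcumin, 1.30 to 1.34 in untreated libraries) and compared by the quasi-likelihood test of edgeR 4.0.16 in R 4.3.3. CPM values are TMM-normalised. The second fit used the sum of the 44 genes as library size. Tested on simulated data for 13718 genes, the TMM fit found 49 of 100 changes of a fold of 2, 91 of 100 changes of a fold of 4, and 15 false calls among 13518 genes. The fit on the family sum found 45 and 91 of 100, with 16 false calls. In both, counts were drawn from untreated means, and as many genes were raised as lowered. The simulated data held no common rise of a gene family, so they do not test the scaling. Alternatives were median-of-ratios (RLE) factors, other library sizes, other filters, a minimum fold of 2, DESeq2 1.42.0, limma-voom 3.58.1, a replicate block, each replicate left out, and removal of trends with length or GC content (loess span 0.3).

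Members, lists and tests were chosen with earlier results of these data known. Named members are, in each role group, the most abundant and those with the largest and smallest fold change; 11 members always named; the 3 largest and smallest fold changes; and the 3 largest called departures in each direction from the family sum. From the other lists, all paralogs and the 2 largest called rises and falls are named. RPL21, RPL31, RPS9 and the marker genes were named besides, RPL21, RPL31 and RPS9 after their values were seen. Some items covered by these rules are not reported here.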

Additional observations from a re-analysis of the deposited data

How the results depend on the processing

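All 44 genes were called higher and 0 lower under all 19 alternatives, a minimum fold of 2 included. Their median log2 fold change was 2.36, against 1.55 with library size alone, 1.73 with library size without ribosomal protein genes, 1.99 without the 100 most abundant genes, 1.53 with the length trend removed and 1.63 with the trend in longest transcript length removed, an alternative chosen after seeing the data. With one replicate left out it was 2.21 to 2.46. Counts over all genes were 3732 higher and 3964 lower, against 1320 and 7747 with library size alone, 1730 and 6896 without ribosomal protein genes in the library size, and 1098 and 1048 at a minimum fold of 2. Relative to the family sum, 4 genes were higher and 2 lower. This became 0 and 0 at a minimum fold of 2, 12 and 3 with the length trend removed and 12 and 9 with the longest transcript. Those newly called higher with the length trend removed included RPL10 (0.66), RPL3 (0.63) and RPL22 (0.58). Of 13718 tested genes, 2.76% were higher than the family and 10507 lower with the length trend removed. With the longest transcript, 2.5% were higher and 11334 lower. Only 1 member was lower with DESeq2, with no low-count filter and with the GC trend removed. With one replicate left out, 2 to 7 were higher and 1 to 3 lower, the fewest higher without curcumin replicate 2 and the most without untreated replicate 2. The causes were not tested.

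Directions relative to the family reversed with the length trend removed for RPL13A (0.33), RPL4 (0.64), RPLP0 (0.27) and RPLP1 (-0.47), and with the longest transcript for RPL15 (0.20), RPL23 (0.57), RPL39 (-0.43) and RPL4 (0.37). In the main fit relative to the family, RPL13A, RPL4, RPLP0, RPLP1 and RPL23 were not called. RPL15 and RPL39 were called there, but their reversed values were not. Against all genes, RPL26L1 reversed with library size alone (-0.044), the length trend removed (-0.20) and the longest transcript (-0.48), and RPL36AL with the longest transcript (-0.16). None of these reversed values of RPL26L1 and RPL36AL was called. Replicate numbers were not shown to pair the libraries. Deviations from group means had correlations of 0.040, 0.023 and 0.11 for like numbers, against -0.0845 to 0.0394 for unlike numbers. With 3 libraries a group, such values cannot exclude a pairing. With the replicate number as a block, the median of the 44 genes was 2.37, all 44 were called, and 4 were higher and 1 lower relative to the family, where RPL17 was at -0.40 and not called (adjusted p = 0.067, edgeR). Depth was not limiting for the members, since the lowest count of any of them was 848, for RPL38 in untreated replicate 2, but 3 libraries a group limit what can be seen of small departures within the family.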
